A study of Mus musculus with 24 samples.

Results

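The response of wildtype bone marrow-derived macrophages (BMDMs) to 24 h of LPS was followed by RNA sequencing in 12 of the study's 24 libraries, 6 from unstimulated and 6 from LPS-stimulated cultures. The libraries were chosen by their labels of genotype and treatment, and no measured value was used for that choice. Wildtype (WT) bone marrow was grown with 10 ng/ml GM-CSF and 2 ng/ml TGF-β, a culture meant to give macrophages resembling those of the lung alveoli. LPS, a lipid of the outer membrane of Gram-negative bacteria, was added at 97 EU/ml on day 6. The treatment protocol given for every library ends with 10 min of the Ca2+ ionophore A23187 at 5 µM, and it does not say whether unstimulated cultures also received it. The other 12 libraries came from BMDMs of mice lacking the aryl hydrocarbon receptor (AhR-KO) under the same treatments, and they are used here only to show where the WT response differed. The methods describe the WT mice as C57/B6/J and the AhR-KO line as B6.129-Ahr tm1Bra/J. Male and female mice aged 7 to 14 weeks were used in the study, but age and sex are not given for each library, and no label ties a stimulated culture to an unstimulated culture of the same animal.

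LPS is recognised at the cell surface by Toll-like receptor 4 with its partners MD-2 and CD14. The receptor signals through the adaptor MyD88 to NF-kB and AP-1, which drive cytokine and chemokine genes, and through the adaptor TRIF to IRF3 and interferon-β, which in turn switches on interferon-stimulated genes. Macrophages also make eicosanoids from arachidonic acid, prostanoids by the cyclooxygenases and leukotrienes by 5-lipoxygenase, and these lipid mediators were the subject of the study.

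Between 45106052 and 70063533 fragments per WT library were counted on genes, a depth that did not differ with LPS (two-sided exact permutation test, p = 0.8, 0.8 over 6 measures). Values are given as CPM, counts per 1000000 counts of a library scaled by edgeR's TMM factors, and every log2 fold change is LPS over unstimulated in WT unless another comparison is named. A gene is called a DEG where the adjusted p was at most 0.05 and the absolute log2 fold change at least 1, and "rose" and "fell" are used only of DEGs. The 20 most abundant genes took 12 to 13.7% of the counts without stimulation and 13.8 to 17.5% after LPS (two-sided exact permutation test, p = 0.0022, 0.013 over 6 measures), and the TMM factors were 1.19 ± 0.118 and 0.937 ± 0.0869 (SD, n = 6 each; two-sided exact permutation test, p = 0.0087, 0.026 over 6 measures). The first principal component of the 12 libraries took 51.6% of the variance and separated the groups. The second took 36.6% and set replicates 33 (unstimulated), 37 and 38 (LPS) against 25, 26 (unstimulated), 29 and 30 (LPS), and the same libraries had the lowest and the highest slopes of log2 CPM on log2 gene length. The slopes ran from -0.28 to 0.24 in unstimulated and from -0.18 to 0.31 in LPS libraries (two-sided exact permutation test, p = 0.73, 0.8 over 6 measures). Unstimulated replicate 33 stood furthest apart, with the lowest slope and 29 of the 44 values that Dixon's test set apart from their group among the genes named here, so values that moved by over 1.5 times or lost a call without it are also given without it. Replicates 34 (unstimulated) and 38 (LPS) had 2 and 4 Y-linked counts, against at least 10304 in each of the other 10 WT libraries, and the results without these libraries are among the alternatives.

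LPS changed many genes, in both directions and by large factors. Of 16593 genes tested, 4137 (24.9%) were DEGs, of which 2186 rose (13.2%) and 1951 fell (11.8%). The 6 libraries of one group lay wholly above or below the 6 of the other for 3710 genes (22.4%) and for 2816 of the DEGs. The changes were large, with a log2 fold change of at least 3 in 725 DEGs that rose and 482 that fell, and of at least 5 in 253 and 148. The balance of rises and falls depended on the scaling. When libraries were scaled to their totals instead, the median log2 fold change of all tested genes moved from 0.03 to -0.31, and 1622 DEGs rose and 3163 fell, which puts the rises at 33.9% of DEGs instead of 52.8%. Under both scalings 3573 genes were DEGs. Of the DEGs named below that rose, Ass1, Car4, Cyp4f13, Fpr1, Hif1a, Klf6, Pfkp, Pla2g4a, Scimp and Slc2a1 were no longer DEGs with total library size, at log2 fold changes of 0.64 to 0.95.

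**Figure D1:**
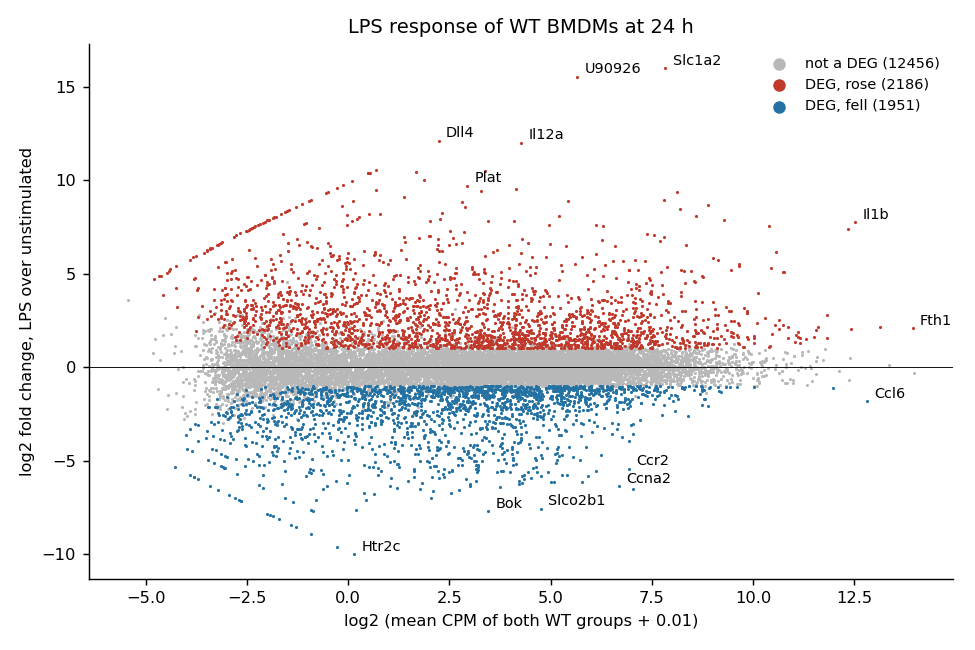
Each point is 1 of 16593 genes tested, with the mean of both WT groups on the x axis (log2 CPM) and the fitted log2 fold change of LPS over unstimulated on the y axis. Coloured points are the 2186 DEGs that rose and the 1951 that fell. Named points are a selection of the genes described in the text. Slc1a2 and U90926 lie highest, and Htr2c lies lowest.

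Where the mean over both groups reached 1 CPM and the groups did not overlap, Gm and Rik gene models left out, the largest fitted increase was that of Slc1a2, which encodes a glutamate transporter known from astrocytes. Its libraries held 2 counts in all without stimulation and 151617 after LPS, where it ranged from 329.5 to 632 CPM (median 447), a ratio of 94638 with a 95% counting interval of 26198 to 781456. U90926 had no count in any unstimulated library and 26.2 to 268 CPM after LPS (median 37.7), which is at least 13780.5-fold higher when 3 counts over the group stand in for none. Dll4, a ligand of Notch receptors, also went from no count to 0.840 to 19.1 CPM (median 9.87), at least 1283-fold higher, with a wide spread between the LPS libraries. Such floors and intervals cover counting error only. The phosphodiesterase gene Pde11a (at least 383-fold higher) and the antisense transcript Erich2os (at least 391.8-fold) were likewise without a count in unstimulated cells. Plat, which encodes tissue plasminogen activator, went from a mean of 0.0142 to 15.3 CPM (9.70 on the log2 scale, adjusted p = 2.6e-07), and Thbs4, a matrix thrombospondin, from 0.0433 to 35.5 CPM (9.54, 1.4e-06). The unstimulated counts of Plat were all in replicate 25, and without that library the fitted log2 fold change was 12.81. Thbs4 ranged widely after LPS, from 2.35 to 101 CPM, with log2 fold changes of 8.87 without LPS replicate 30 and 10.13 without unstimulated replicate 26. The other 5 of the 12 largest increases were cytokines and chemokines described further on. In all, 61 genes that rose had no count in the 6 unstimulated libraries, and 21 genes that fell had none in the 6 LPS libraries.

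Among the largest decreases chosen in the same way, Htr2c, a serotonin receptor gene, went from 1.19 to 4.15 CPM (median 1.67) to no count, at least 240.0-fold lower. Bok, a BCL-2 family member, fell from 21.8 to 0.103 CPM (log2 fold change -7.71), and Slco2b1, an organic anion transporter, from 53.9 to 0.271 CPM (-7.60). Cpne5, a Ca2+-binding copine, held 886 counts without stimulation and 3 after LPS, a ratio of 237 (95% counting interval 81 to 1147). Its fitted log2 fold change was -7.66, and -8.64 without LPS replicate 21. The other 8 were Troap, Sapcd2, Ankle1, Mcm10 and Pclaf, which act in the spindle or in DNA replication and repair, beside the keratin Krt79, the kinase Dmpk and AC131692.2, a gene known only by its clone name, with log2 fold changes between -7.09 and -6.50. Except for Pclaf, these were low counts after LPS, and without 1 LPS library the change was larger by over 1.5 times for Dmpk (-8.22 without 29), Mcm10 (-7.74) and Sapcd2 (-7.62), for Ankle1 (-8.16 without 37), for Krt79 (-8.03 without 30) and Troap (-8.10), and for AC131692.2 (-7.14 without 22).

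As a share of the library, the largest gains among DEGs were those of a few transcripts already present or newly made. Fth1, the ferritin heavy chain that stores iron, went from 3912 to 7578 CPM (median 6293) to 12635 to 40618 CPM (median 23646). Mmp12, the macrophage elastase, rose from 3269.7 ± 1255 to 14709 ± 5239.6 CPM (SD, n = 6), Ccl9 from 2167 ± 1004 to 8842 ± 5621 CPM, and the peroxiredoxin gene Prdx5 from 926 ± 526 to 6338 ± 3729.5 CPM. Il1b and Il1a completed the list. The largest losses among DEGs were those of the chemokine Ccl6 (11166 ± 4149 to 3139 ± 1828 CPM) and of Chil3, the chitinase-like protein Ym1 (5562 ± 1149 to 2534 ± 1523 CPM), followed by the ribosomal protein pseudogenes or gene models Rps16-ps2 and Gm8203, the proton pump subunit Atp6v0d2 and the ribonuclease Ear2. Chil3 was no longer a DEG without any 1 of replicates 22 and 38 (log2 fold change -0.998 to -0.99), and Rps16-ps2 and Gm8203 were no longer DEGs without any 1 of replicates 22, 29, 30 and 33. Pseudogene counts can hold reads of their parent genes and are uncertain.

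Of 27 cytokine genes tested, 23 rose, 1 fell and 3 were not DEGs, and their median log2 fold change was 3.44 against 0.03 over all genes. Il1b and Il1a, which encode both forms of interleukin-1, had the smallest p-values. Il1b had 42.3 to 63 CPM without stimulation (median 56) and 8653 to 18877 CPM after LPS (median 10206). Il1a went from 47.8 to 78.8 CPM (median 62.6) to 6033 to 17166 CPM (median 8817). For both genes all LPS libraries lay far above the highest unstimulated one, with log2 fold changes of 7.76 ± 0.24 and 7.39 ± 0.32 (SE; adjusted p = 2.4e-16 and 3.8e-14). Il6, which drives the acute phase response, ranged from 0.852 to 2.60 CPM (median 1.72) before and from 357 to 888 CPM (median 519) after LPS (log2 fold change 8.44 ± 0.47, adjusted p = 2.7e-12). Tnf, the classical early product of LPS, was at 6.42 to 8.01 CPM (median 6.97) and 78.3 to 119 CPM (median 93.4), a smaller rise with little spread (log2 fold change 3.75 ± 0.25, adjusted p = 4.4e-11).

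Subunits of interleukin-12 and interleukin-23, which direct T helper cells, appeared nearly from nothing. Il12a, the p35 chain, held 3 counts in the unstimulated libraries, all in replicate 26, and 11827 after LPS, a ratio of 4922 (95% counting interval 1684 to 23865). Il12b, the shared p40 chain, rose from 0.413 to 42.6 CPM, and Il23a, the p19 chain, from 0.0567 to 7.84 CPM. Il10, the main anti-inflammatory cytokine of macrophages, was without a count in unstimulated cells and had 1.87 to 4.34 CPM after LPS (median 2.50), at least 382-fold higher. Csf3, encoding G-CSF, went from 1 count in all to 6.39 CPM (ratio 2660.3, interval 477 to 105076), while Ifnb1, encoding interferon-β, stood at 0.0979 to 2.50 CPM after LPS (median 0.877) against 0 to 0.158 CPM before (median 0.0213), with overlapping groups (log2 fold change 4.37, adjusted p = 0.00069; 5.19 without replicate 34). The only cytokine that fell was Il18, from 43.8 ± 30.1 to 7.21 ± 4.30 CPM (SD, n = 6; log2 fold change -2.60, adjusted p = 1.8e-05), and replicate 33, at 105 CPM, was its highest library (log2 fold change -2.12 without it). Il18 is made constitutively by macrophages and activated by caspase-1, as Il1b is.

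**Figure D2:**
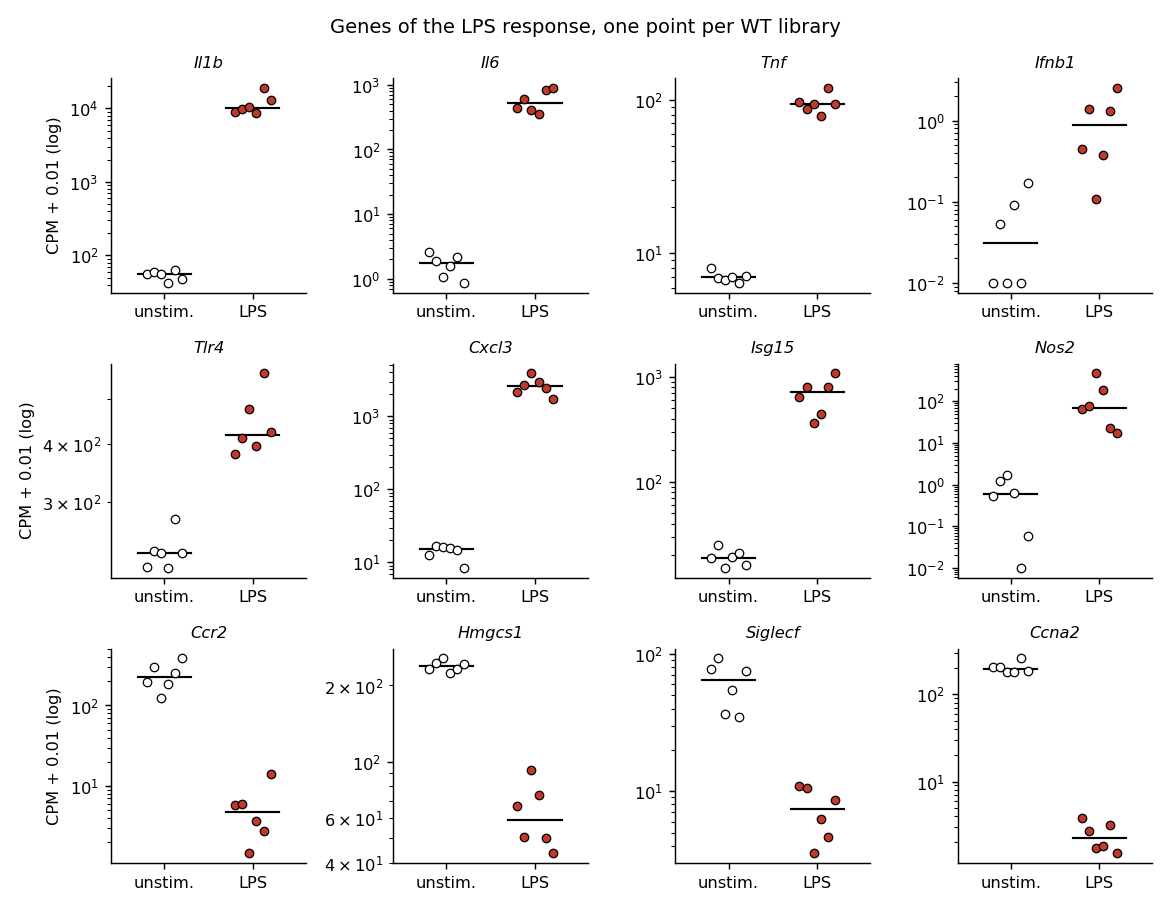
Each point is 1 library, open for unstimulated and filled for LPS-stimulated WT BMDMs (6 each), with CPM + 0.01 on a log axis; the short bars are group medians. The groups overlap for Ifnb1 and for no other gene shown. Ccr2, Hmgcs1, Siglecf and Ccna2 are lower after LPS and the others higher, Tlr4 by the smallest fold.

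Chemokines moved with the cytokines. Of 22 tested, 18 rose, 1 fell and 3 were not DEGs (median log2 fold change 4.32). The neutrophil attractants Cxcl3, Cxcl2 and Cxcl1, ligands of CXCR2, rose from 14.1 to 2658, 3.59 to 439.8 and 0.182 to 85.8 CPM, and Cxcl5, another of this group, from no count to 3.21 CPM (at least 438-fold). Cxcl3 itself ranged from 8.36 to 17 CPM (median 15.2) in unstimulated libraries and from 1743 to 3891 CPM (median 2596) in LPS libraries. The interferon-induced ligands of CXCR3 rose too. Cxcl11 went from 0.0121 to 20.9 CPM, Cxcl10 from 3.48 to 131 CPM and Cxcl9 from 0.560 to 38.1 CPM. Among other chemokines, Ccl5 rose from 0.896 to 443 CPM (log2 fold change 8.93), Ccl22 from 96.8 to 3311 CPM (5.10) and the membrane-bound Cxcl16 from 174 to 1569 CPM (3.17). Ccl6 was the exception, at 8328 to 19267 CPM (median 9743) before and 1647 to 6547 CPM (median 2280.0) after LPS, 2 groups that did not overlap.

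Receptors for chemokines and other chemoattractants changed in both directions, 40% called against 24.9% of all genes. Among 15 tested, 3 were higher, 3 lower and 9 not DEGs (5 higher without replicate 33). Ccr7, which guides cells to lymph nodes, rose from 12.4 to 51.7 CPM (median 46.7) to 541 to 2414 CPM (median 1374). Ccr2, the receptor of monocytes for Ccl2, fell from 123 to 384 CPM (median 223) to 1.45 to 13.9 CPM (median 4.73), the largest fall of the list (log2 fold change -5.43 ± 0.49, adjusted p = 5.6e-09). Ccrl2, a non-signalling receptor of chemerin, and the formyl peptide receptor Fpr1 rose (4.16 and 1.25, the latter no longer a DEG without replicate 37 (log2 fold change 0.97)), whereas the second C5a receptor C5ar2 and Cxcr2 fell (-3.28 and -1.90).

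The gene of the LPS receptor itself stayed short of the limit for a DEG. Tlr4 had 217 to 276 CPM (median 233) without stimulation and 379.9 to 567 CPM (median 417) after LPS, groups that did not overlap, with a log2 fold change of 0.91 ± 0.11 that lay just under the limit for a DEG (adjusted p = 5.7e-07). Its co-receptor Cd14 rose from 55.8 to 84.1 CPM (median 66.1) to 1984 to 4015 CPM (median 2216; log2 fold change 5.32 ± 0.27, adjusted p = 5.2e-13), and Ly96, which encodes MD-2, rose by 1.45 on the log2 scale. The adaptors Myd88 (0.18) and Ticam1, which encodes TRIF (0.83), were not DEGs. In the whole list of LPS sensing and NF-kB feedback, 24 of 38 genes rose, none fell and 14 were not DEGs (median 1.63). The feedback genes with the smallest p-values were Socs3, an inhibitor of cytokine receptors (3.82), Dusp1, a phosphatase of MAP kinases (3.59), and the NF-kB inhibitor Nfkbib (2.39). Nfkbia, which encodes the inhibitor IkB-α, rose from 256 ± 135 to 1313 ± 579 CPM (SD, n = 6), and Tnfaip3, the ubiquitin-editing enzyme A20, from 22.9 ± 4.95 to 249.5 ± 70.4 CPM.

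Promoters of these genes were read for short motifs on either strand, 250 bases before to 50 after the start site (RefSeq, GRCm38.p6), and 13353 promoters of 10516 of the 16593 tested genes were matched by symbol. The letters GGGA, NN, TTCC, a form of the kappaB site of NF-kB, were in 4 of 15 chemokine promoters (26.7%), in 4 of 37 of the LPS sensing list (10.8%) and in 3 of 25 cytokine promoters (12%), and also in 2 of 10 promoters of housekeeping genes (20%), against 1.58% of all 13353 and 2.26% of those of DEGs that rose. These shares are descriptions with no test. The 250 bases upstream of Nfkbia and Cxcl3 are shown, with the motif set in capitals. Each is the DEG of its list with the smallest p whose 250 upstream bases hold the motif. Genes on the chromosome of Cd14 were left out of this choice. For Nfkbia (chr12:55492648-55492897, minus strand) the motif begins 29 bases before the start site. For Cxcl3 (chr5:90785851-90786100, plus strand) 2 overlapping matches begin 73 and 72 bases before it.
Nfkbia: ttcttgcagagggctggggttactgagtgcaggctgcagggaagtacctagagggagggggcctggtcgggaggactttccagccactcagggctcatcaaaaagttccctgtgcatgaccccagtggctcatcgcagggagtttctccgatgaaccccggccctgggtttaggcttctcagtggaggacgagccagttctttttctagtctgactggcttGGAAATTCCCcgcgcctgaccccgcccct
Cxcl3: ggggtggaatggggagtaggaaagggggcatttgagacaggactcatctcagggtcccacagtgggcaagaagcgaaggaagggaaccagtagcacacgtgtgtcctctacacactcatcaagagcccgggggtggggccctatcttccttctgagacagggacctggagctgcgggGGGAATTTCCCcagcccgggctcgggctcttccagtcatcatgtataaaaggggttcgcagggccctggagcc

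Interferon-stimulated genes were among the most uniform groups. Of 34 tested, 33 rose and none fell, with a median log2 fold change of 3.14, and Eif2ak2, at 1.37, was not a DEG (adjusted p = 0.15; 0.016 with the 3 runs of 8 consecutive library numbers as a factor in the fit). Irf7, the transcription factor that amplifies interferon production, had 25.6 to 52.3 CPM (median 30.7) before and 1497 to 1754 CPM (median 1509) after LPS. Isg15, a ubiquitin-like modifier, rose from 15.1 to 24.8 CPM (median 19) to 359.9 to 1077 CPM (median 720.0). No unstimulated library reached the lowest LPS library for either gene, and the log2 fold changes were 5.52 ± 0.42 and 5.16 ± 0.39 (adjusted p = 3.2e-10 and 3.6e-10). Zbp1, a sensor of nucleic acids, and Xaf1, a partner of the apoptosis inhibitor XIAP, had smaller p-values with changes of 3.13 and 3.77. The DNA-binding family member Ifi205 had the largest change of the list, 7.07. All 17 interferon-inducible GTPases tested rose (median 3.78), between 2.08 for Irgm2 and 8.22 for Gbp2b, and these enzymes act on vacuoles that hold microbes. Igtp, Irgm1 and Gbp3 rose by 2.68, 2.70 and 4.07 on the log2 scale. Members of this family lie side by side and resemble each other, and since only uniquely aligned fragments of a single gene were counted, the split between them is uncertain, above all for Gbp6 and Gbp10, whose exons overlap other annotated genes over 29% and 46.3% of their length.

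The interferon-stimulated response element, read as GAAA, NN, GAAA, was in 16 of 28 promoters of interferon-stimulated genes (57.1%) and in 10 of 11 of the GTPases (90.9%), against 3.35% of all promoters, 6.94% of those of DEGs that rose and 3.44% of those that fell. The upstream 250 bases of Isg15 (chr4:156200819-156201068, minus strand) were chosen by the same rule and hold 3 overlapping matches, which begin 78, 72 and 66 bases before the start site and are set in capitals as 1 run.
Isg15: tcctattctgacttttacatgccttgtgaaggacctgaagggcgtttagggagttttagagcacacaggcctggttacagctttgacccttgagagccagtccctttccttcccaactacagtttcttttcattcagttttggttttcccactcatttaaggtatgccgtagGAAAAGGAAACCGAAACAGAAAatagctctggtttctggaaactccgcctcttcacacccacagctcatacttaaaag

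Of 14 genes of MHC class I presentation, 12 rose and none fell (median 1.70), with H2-K1, a heavy chain, at 809 to 1334 CPM (median 1159.8) before and 3784 to 6171 CPM (median 5160.1) after LPS. The peptide transporter subunits Tap1 and Tap2 and the proteasome activator Psme1 rose by 2.32, 1.81 and 1.56 on the log2 scale. Of 12 genes of MHC class II presentation none rose, 2 fell and 10 were not DEGs (16.7% called against 24.9% of all genes; median -0.56). The 2 that fell encode the peptide exchange factor H2-M, H2-DMa (-1.68) and H2-DMb2 (-1.87), while the class II chains H2-Aa (-0.66, adjusted p = 0.1), H2-Ab1 (-0.73, 0.054) and H2-Eb1 (-0.45, 0.36) were not DEGs. With total library size 5 genes of the list fell, H2-Aa (-1.03, adjusted p = 0.01) and H2-Ab1 (-1.11, 0.0026) among them, and H2-Ab1 also fell without libraries 33 to 40 (-1.16, 0.02). Costimulatory and inhibitory ligands rose in 10 of 13 cases (median 3.03). Cd274, which encodes the inhibitory ligand PD-L1, went from 58.6 to 73.3 CPM (median 67.1) to 435 to 629.7 CPM (median 556). Cd40 went from 3.29 to 10.8 CPM (median 7.67) to 91.9 to 532 CPM (median 262), and Cd80 and Pdcd1lg2 rose by 3.59 and 2.68 on the log2 scale. The inhibitory receptor Vsir lay at -0.92 (adjusted p = 0.00091), short of the limit for a DEG. It was a DEG with total library size (-1.27) and without LPS replicate 29 (-1.12).

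Of 17 genes of inflammasomes and cell death, 5 rose, 2 fell and 10 were not DEGs (41.2% called against 24.9% of all genes). Casp4, the caspase-11 that senses LPS in the cytosol (2.79), Casp1 (1.80), the pore former Gsdmd (1.44) and the necroptosis effector Mlkl (2.34) rose, as did Nlrp3 (2.04), while the sensor Nlrp1b (-2.73) and the gasdermin Gsdme (-1.62) fell. Immediate-early genes, which peak within the first hours, were higher in 6 of 17 cases and lower in 2 (47.1% called against 24.9%). Junb, Atf3, Ier3 and Nr4a1 rose by 2.17, 2.42, 2.39 and 1.81 on the log2 scale, the growth regulators Egr3 and Myc had changes of -2.75 and -2.55 and fell, and Fos, the best known member, was not a DEG at 5.46 ± 1.76 and 4.08 ± 2.55 CPM (SD, n = 6; log2 fold change -0.42, adjusted p = 0.41). Myc was no longer a DEG without any 1 of replicates 21, 22, 25, 26, 37 and 38 (log2 fold change -2.48 to -2.22), and it was lower still without replicate 29 (-3.23).

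Enzymes of nitric oxide, arginine and itaconate metabolism rose in 6 of 10 cases and fell in none (5 and 2 with total library size). Their median was 1.597, and 60% were called against 24.9% of all genes. Acod1, which makes itaconate from a citric acid cycle intermediate, had 27 to 57.4 CPM (median 44.9) before and 2693 to 3465 CPM (median 2967) after LPS. Nos2, the inducible nitric oxide synthase, went from 0 to 1.74 CPM (median 0.576) to 17.7 to 471 CPM (median 69.9). Both groups of libraries were separate for either gene, but Nos2 varied far more between cultures (log2 fold change 7.63 ± 1.32, adjusted p = 6.0e-05) than Acod1 (6.16 ± 0.32, 7.4e-13), and the change of Nos2 was 6.69 without LPS replicate 29. The arginine transporter Slc7a2 (1.96) and the arginine recycling enzyme Ass1 (1.31) rose as well.

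The enzymes of lipid mediator synthesis, the subject of the study, were rearranged rather than uniformly raised. Among 13 genes listed under arachidonate release, 4 rose and 2 fell (median 0.31), 46.2% called against 24.9% of all genes. The list also holds enzymes that act mainly on other lipids, such as Pla2g7 and Mgll. The platelet-activating factor hydrolase Pla2g7 (3.46) rose most among abundant members, the secreted phospholipase Pla2g5 rose from near nothing (0.0108 to 0.507 CPM, log2 fold change 5.18, and 5.95 without replicate 25), and the cytosolic phospholipase Pla2g4a stood just at the limit (1.001 ± 0.16, adjusted p = 2.2e-05), and it was no longer a DEG without any 1 of replicates 18, 25, 26, 29, 34 and 37 (log2 fold change 0.88 to 0.99). In a fit of the 12 WT libraries alone the list held 1 rise, and without replicates 34 and 38 it held 2. The lysosomal phospholipase Pla2g15 (-1.15) and the monoglyceride lipase Mgll (-1.61) fell.

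Of 12 leukotriene genes tested 4 fell, 1 rose and 7 were not DEGs (median -0.72), 41.7% called against 24.9% of all genes, and 6 fell with total library size. Alox5, the 5-lipoxygenase that starts the pathway, had 76.7 to 221 CPM (median 192) without stimulation and 6.02 to 32.8 CPM (median 18.3) after LPS, and replicate 33 was the lowest unstimulated library. The groups did not overlap (log2 fold change -3.32 ± 0.41, adjusted p = 6.5e-07), and without replicate 33 the log2 fold change was -3.46. Alox5ap, which presents arachidonate to that enzyme, was not a DEG, with 504 to 1458 CPM (median 779) and 309 to 1328 CPM (median 457; -0.42 ± 0.34, adjusted p = 0.36). Ltc4s, the synthase of the cysteinyl leukotriene LTC4, fell from 33.7 to 46.3 CPM (median 40.8) to 9.84 to 21.5 CPM (median 14.1; -1.43 ± 0.33, adjusted p = 0.0011). Lta4h, which makes LTB4, fell too (log2 fold change -1.75, adjusted p = 1.2e-08). Of the receptors, the second cysteinyl leukotriene receptor Cysltr2 rose (1.67), with its highest levels in LPS replicates 37 (8.92 CPM) and 38 (14.7 CPM), and it was no longer a DEG without libraries 33 to 40 (0.92, adjusted p = 0.14). The low-affinity LTB4 receptor Ltb4r2 fell from a low level (-2.13, and -3.09 without LPS replicate 22) and was no longer a DEG without any 1 of replicates 25, 29 and 30 (log2 fold change -2.02 to -1.95), nor was it one without libraries 33 to 40 (-1.70).

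In the prostanoid branch, the constitutive cyclooxygenase and the inducible one moved apart. Ptgs1, which encodes COX-1, fell from 128 to 291 CPM (median 246) to 7.95 to 54.9 CPM (median 26; log2 fold change -3.03 ± 0.39, adjusted p = 1.2e-06). Ptgs2, which encodes COX-2, rose from 0.499 to 1.27 CPM (median 0.842) to 408 to 917 CPM (median 499; 9.38 ± 0.58, adjusted p = 1.4e-11). Per kb of exon, the mean level of Ptgs1 was 60.2 CPM without stimulation against 0.182 CPM of Ptgs2, and after LPS 7.36 against 122 CPM. Downstream of them, Ptges, the inducible synthase of prostaglandin E2, rose from 2.61 to 5.12 CPM (median 3.44) to 119.7 to 233 CPM (median 134; 5.48 ± 0.32, adjusted p = 5.6e-12). Hpgds, the synthase of prostaglandin D2 in blood cells, fell from 17.7 to 48 CPM (median 33) to 1.73 to 9.40 CPM (median 3.42; -2.81 ± 0.47, adjusted p = 3.9e-05). Tbxas1, the thromboxane synthase, fell just past the limit (-1.02 ± 0.21, adjusted p = 0.00035) and was no longer a DEG without any 1 of replicates 17, 21, 22, 29, 30, 33 and 34 (log2 fold change -0.999 to -0.90). Ptges2 and Ptges3, the other synthases of prostaglandin E2, were not DEGs (0.35 and -0.13). Among receptors, Ptger3 for prostaglandin E2 fell (-3.58) and Ptgfr for prostaglandin F rose (2.95), while the other E receptors Ptger2 (0.02) and Ptger4 (0.65) were not DEGs. Over the 20 genes of this list 3 rose and 6 fell, 45% called against 24.9% of all genes. The median, 0.06, lay close to that of all genes.

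Of 7 other genes of lipoxygenase and epoxygenase metabolism, Alox12, the 12-lipoxygenase, rose from a mean of 0.0203 to 1.45 CPM (5.95 on the log2 scale, adjusted p = 6.9e-07; 7.09 without replicate 18, which at 0.0850 CPM held most of its unstimulated level) and Cyp4f13 by 1.10, whereas Ephx1, the microsomal epoxide hydrolase, fell (-3.42, adjusted p = 1.2e-11) with Cyp2s1 (-2.28). Alox15, at 1.04 ± 0.564 and 0.606 ± 0.561 CPM (SD, n = 6), was not a DEG.

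**Figure D3:**
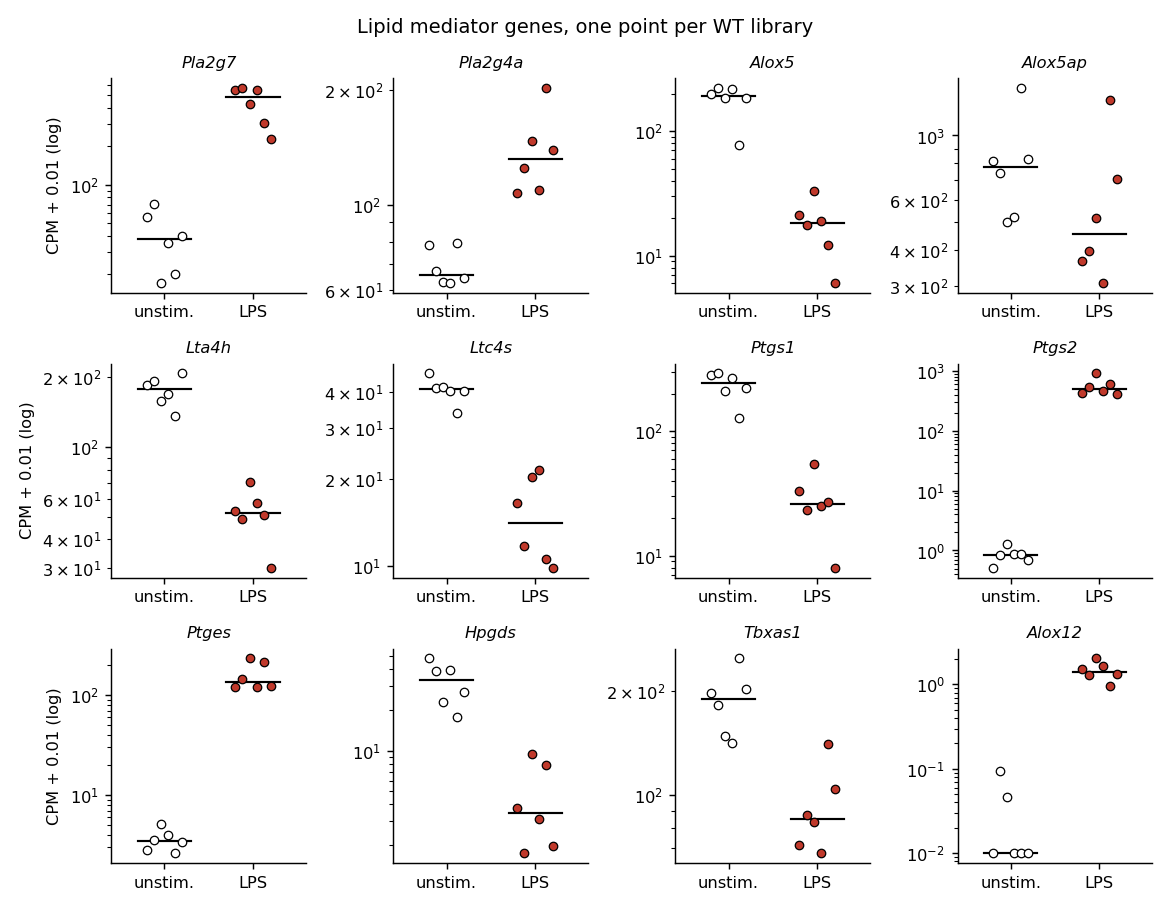
Each point is 1 WT library, open for unstimulated and filled for LPS (6 each), with CPM + 0.01 on a log axis for 12 genes of lipid mediator metabolism; short bars are group medians. Alox5, Lta4h, Ltc4s, Ptgs1, Hpgds and Tbxas1 are lower after LPS, Ptgs2, Ptges, Alox12, Pla2g7 and Pla2g4a are higher, and the groups of Alox5ap overlap.

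Of 24 genes of cholesterol synthesis tested 18 fell, none rose and 6 were not DEGs, with a median log2 fold change of -1.53. Hmgcs1, which makes HMG-CoA, an early intermediate, had 225 to 256 CPM (median 238) before and 43.7 to 92.6 CPM (median 58.8) after LPS. Acat2, Dhcr7, Nsdhl and Fdft1, enzymes from the first to the last steps, had the smallest p-values, with log2 fold changes of -2.05, -2.27, -1.55 and -1.53. Srebf2, which encodes the regulator SREBP-2 of this programme, was not a DEG (-0.50, adjusted p = 0.53). A sterol element, TCACNCCAC, was found in 1 of the 20 promoters of this list matched, that of Hmgcs1 (chr13:119690101-119690350, plus strand), beginning 137 bases before the start site, against 1.10% of all promoters. CCAAT, the motif of the factor NF-Y, was in 16 of the 20 (80.00%) against 37.9% of all.
Hmgcs1: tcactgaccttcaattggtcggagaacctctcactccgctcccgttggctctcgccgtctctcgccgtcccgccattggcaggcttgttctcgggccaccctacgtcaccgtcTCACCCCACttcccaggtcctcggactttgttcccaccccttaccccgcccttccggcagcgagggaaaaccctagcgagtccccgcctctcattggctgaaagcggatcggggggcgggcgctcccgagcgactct

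Genes of cholesterol efflux and LXR targets rose in 3 of 16 cases and fell in 2 (31.2% called against 24.9% of all genes). Abca1, the exporter of cholesterol to apolipoproteins, rose (20.6 ± 13.8 to 338 ± 323 CPM, SD, n = 6), as did Ch25h, which makes 25-hydroxycholesterol (3.02), and the lysosomal cholesterol carrier Npc2 (1.74). Abcg1, a further exporter under the control of LXR, stayed at 309 and 318 CPM (log2 fold change 0.04), and the desaturases Scd1 and Scd2 fell (-1.84 and -1.25). Scd2 was no longer a DEG without any 1 of replicates 18, 21, 22, 25, 26, 34, 37 and 38 (log2 fold change -1.23 to -1.05). In fatty acid metabolism 3 of 28 genes rose and 4 fell (25% against 24.9% of all genes). The triglyceride synthase Dgat2 (2.66) and the fatty acid receptor Cd36 (1.91) were the abundant genes that rose, and the fatty acid binding protein Fabp4 (-2.99), the nuclear receptor Pparg (-1.53), the lysosomal lipase Lipa (-1.32) and the elongase Elovl6 (-2.31) fell.

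Of 22 genes of glycolysis, 31.8% were DEGs against 24.9% of all genes. Among them 5 rose, 2 fell and 15 were not DEGs (median 0.22). The glucose transporter Slc2a1 (1.24), hexokinase Hk3 (1.95), the regulator Pfkfb3 (2.39) and the transcription factor Hif1a (1.02) rose with Pfkp (1.09), and with total library size as the scaling the list held 2 rises. Hif1a was no longer a DEG without replicate 29 (log2 fold change 0.98), and Pfkp no longer a DEG without replicate 33 (log2 fold change 0.96). The lactate transporter Slc16a1 (-1.68) and Pdk1 (-1.46) fell, and Pkm (0.17), Ldha (0.38) and Eno1 (0.06) were not DEGs. None of 31 nuclear genes of the respiratory chain was a DEG (3 fell with total library size), with log2 fold changes between -0.77 and 0.33 and a median of -0.04. Among genes of NRF2 and thiol defence 8 of 24 rose and 1 fell (37.5% called against 24.9% of all genes). Sod2, the mitochondrial superoxide dismutase and an NF-kB target, rose most (183 to 331 CPM, median 197, against 1349 to 2323 CPM, median 1531), followed by the cystine transporter Slc7a11 (2.78), while Nqo1 (0.79, adjusted p = 0.01) and Gclm (-0.55, 0.011), classical targets of NRF2, were not DEGs.

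Iron genes rose in 6 of 13 cases and fell in 2 (61.5% called against 24.9% of all genes). Besides Fth1, the phagosomal transporter Slc11a1, also called NRAMP1, rose from 13.3 to 20.6 CPM (median 14.9) to 289 to 460.2 CPM (median 313; 4.40 ± 0.23, adjusted p = 7.9e-13). Hamp, encoding the iron hormone hepcidin, went from 3 counts, all in replicate 17, to 1698, a ratio of 707 (95% counting interval 242 to 3426). Steap3, a ferrireductase, and Hfe, a regulator of hepcidin, fell (-3.24 and -1.43), and the iron exporter Slc40a1, which hepcidin degrades, was not a DEG (-0.14). Of 10 genes of the kynurenine pathway, through which tryptophan gives ligands of AhR, 3 rose and 1 fell (40% called against 24.9% of all genes; 4 fell with total library size). Il4i1, an amino acid oxidase, rose from 16.2 to 239.7 CPM (3.89), Ido1 from 0.0987 to 2.19 CPM (4.47) and Ido2 by 3.89 on the log2 scale (5.77 without replicate 33, its highest unstimulated library at 0.204 CPM; the LPS libraries had 0.0480 to 0.954 CPM), and Qprt fell from 0.307 to 0.0137 CPM (-4.19, and -5.05 without LPS replicate 22). Kynu and Kmo were not DEGs (0.14 and 0.50). Ahr itself was at 9.60 to 43.1 CPM (median 30.7) without stimulation and 6.57 to 27.9 CPM (median 18) after LPS, and Ahrr, its repressor and target, at 13.3 to 66.1 CPM (median 46.7) and 27.2 to 96.6 CPM (median 61.6). Neither was a DEG (-0.75 ± 0.35, adjusted p = 0.099, and 0.60 ± 0.45, adjusted p = 0.32), but Ahr fell with total library size (-1.08, adjusted p = 0.03).

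Genes of division fell almost without exception. Of 31 genes of the cell cycle and DNA replication 28 fell, 1 rose and 2 were not DEGs, with the lowest median of the 34 lists, -3.75. Ccna2, cyclin A, went from 182 to 259 CPM (median 196) to 1.49 to 3.78 CPM (median 2.25). Rrm2, which supplies deoxyribonucleotides, went from 119.7 to 143 CPM (median 136) to 1.74 to 3.78 CPM (median 2.75). Aurka and Aurkb, kinases of mitosis, fell (-4.71 and -4.98), as did the helicase subunit Mcm7 (-4.25), and the gene that rose was Cdkn1a, the cell cycle inhibitor p21, from 188 to 297 CPM (median 219) to 893 to 1852 CPM (median 1193). In bulk RNA, fewer dividing cells and less of these transcripts per cell cannot be told apart. The 2 exceptions were E2f1 (-0.26) and Mki67, the gene of the marker Ki-67, which was counted at a low level in both groups (2.04 ± 0.660 and 2.46 ± 0.950 CPM; SD, n = 6). CCAAT was in 19 of 28 promoters of this list (67.9%) and in 46.6% of those of all DEGs that fell, against 34.7% of those that rose.

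**Figure D4:**
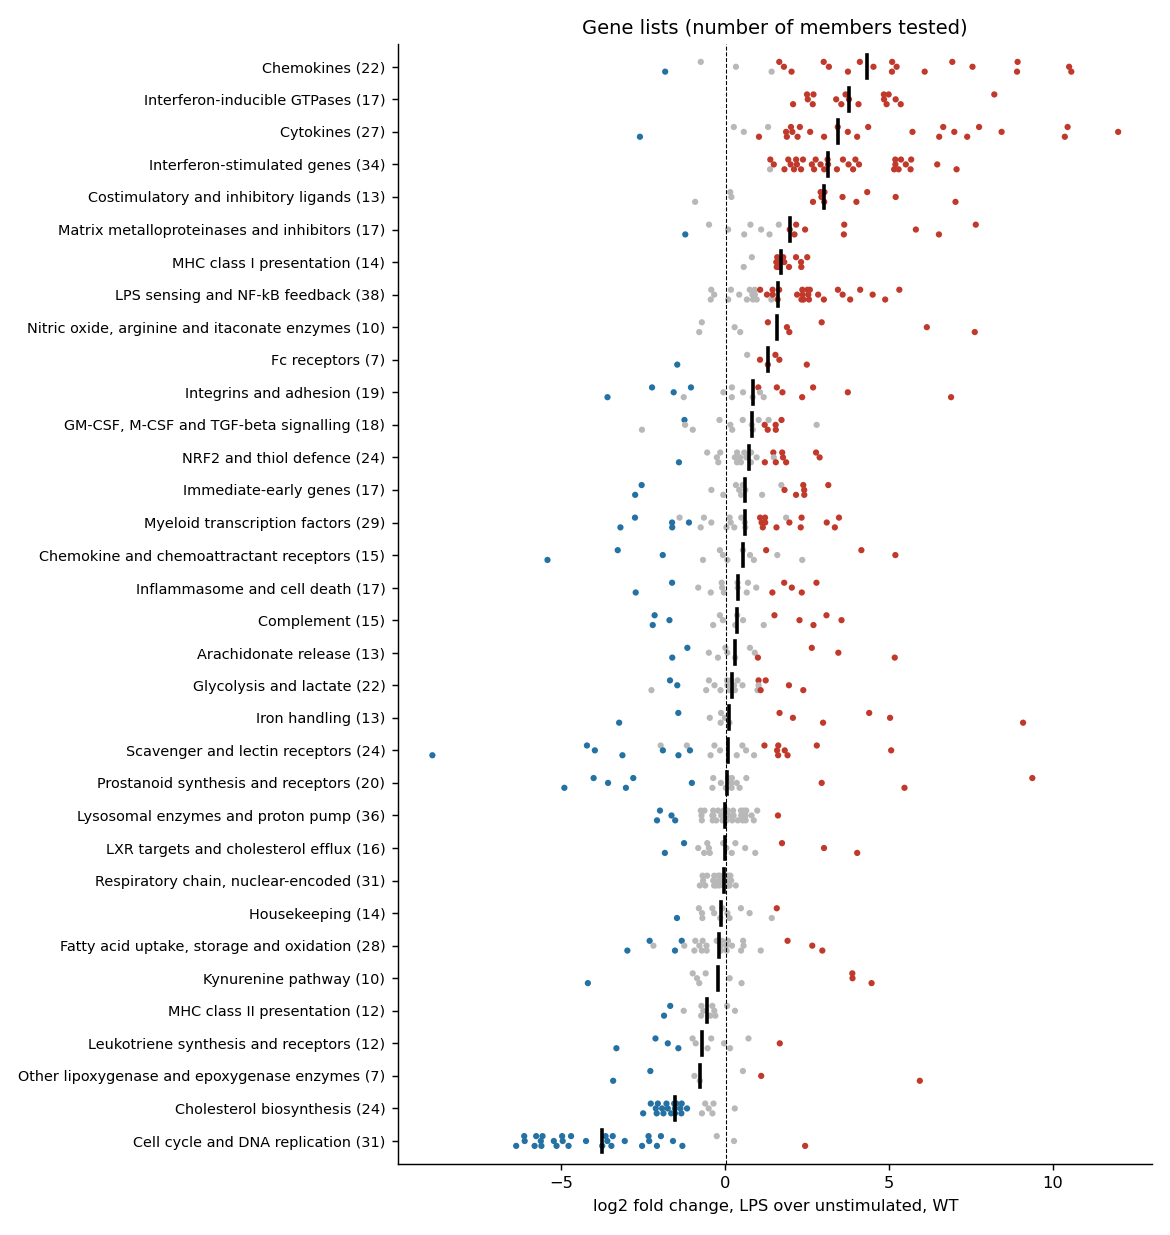
Each point is a tested member of 1 of 34 gene lists, with its fitted log2 fold change of LPS over unstimulated in WT on the x axis; black bars are list medians, coloured points are DEGs that rose or fell, grey points are not DEGs, and the dashed line is the median of all 16593 genes. Lists are ordered by their median, from chemokines at 4.32 to cell cycle genes at -3.75.

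Pattern recognition and uptake receptors split, with 8 of 24 scavenger and lectin receptors higher and 7 lower (median 0.10), 62.5% called against 24.9%. Clec4e, which encodes the mycobacterial glycolipid receptor Mincle, rose from 69.97 to 189.6 CPM (median 85.8) to 2022 to 5528 CPM (median 2666). Clec4d, its neighbour and partner, Trem1, an amplifier of Toll-like receptor signals, and the oxidised LDL receptor Olr1 rose by 2.80, 1.59 and 1.62 on the log2 scale. The lectins Mgl2 (-4.22) and Clec10a (-3.14), the lipid sensor Trem2 (-1.90) and the HDL receptor Scarb1 (-1.43) fell, together with Mrc1, the mannose receptor (-3.98, and -4.91 without LPS replicate 29). Cd209a, a lectin of dendritic cells, went from 1.03 CPM to no count, at least 113-fold lower. Of 7 Fc receptor genes 5 rose, among them the high-affinity Fcgr1 (2.50) and the shared signalling chain Fcer1g (1.54), and Fcgrt, the receptor that recycles IgG, fell (-1.46), while the list held 2 rises with total library size and 3 without libraries 33 to 40.

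Of 15 complement genes 5 rose and 3 fell (53.3% called against 24.9% of all genes), and those of the classical pathway went both ways. C1s1 (3.55) and C1ra (1.51), the proteases of the first component, rose, while the chains of its recognition unit C1qa (-2.21), C1qb (-1.70) and C1qc (-2.15) fell with overlapping groups, and in a fit of the 12 WT libraries 1 of these 3 falls was a DEG. C1qb was also no longer a DEG without any 1 of replicates 17, 18 and 37 (log2 fold change -1.53 to -1.49). C2 and Cfb rose too (3.10 and 2.27), but 42.8% and 79.5% of their exons overlap another annotated gene on the same strand. Matrix metalloproteinases and their inhibitors rose in 9 of 17 cases and fell in 1 (58.8% called against 24.9% of all genes). Mmp13 went from 5.06 to 34.5 CPM (median 17.5) to 415 to 2457 CPM (median 774), the inhibitor Timp1 rose from 3.45 to 42.9 CPM, and Mmp8, the collagenase of neutrophils, fell (-1.22), though it was no longer a DEG without replicate 38 (log2 fold change -0.99). Of 19 integrin and adhesion genes 7 rose and 4 fell (57.9% called against 24.9% of all genes). Vcam1 (3.75) and Icam1 (2.69) rose, Itgb8, whose product activates TGF-β, went from 0.0950 to 12 CPM, and Itgb7 (-3.59) and Itga6 (-2.23) fell, the count of rises being 4 when LPS replicate 29 or 30 was left out and 3 with total library size. Of 36 lysosomal genes 31 were not DEGs (13.9% called against 24.9% of all genes). Ctsz rose (1.61), and Atp6v0d2 (-2.08), Ctsk (-1.64), Man2b1 (-1.99) and the lysosomal regulator Tfeb (-1.53) fell, with 7 falls in the list with total library size. Man2b1 was no longer a DEG without replicates 34 and 38 (-1.77, adjusted p = 0.051).

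Of 18 genes of GM-CSF, M-CSF and TGF-β signalling, receptors and SMAD proteins included, 5 rose and 1 fell (33.3% against 24.9% of all genes; 3 and 2 with total library size). Cish, Pim1 and Socs2, known targets of STAT5, rose by 1.55, 1.72 and 1.54 on the log2 scale, and the TGF-β receptor Tgfbr1 fell (-1.24). Of 29 myeloid transcription factors 12 rose and 5 fell (58.6% called against 24.9% of all genes), 7 and 8 with total library size. Irf8 (3.10), Irf1 (1.96), Batf3 (2.31) and Klf6 (1.22) rose, Cebpa (-1.62), Cebpd (-1.10), Klf4 (-3.20) and Bhlhe41 (-1.62) fell, and the lineage factor Spi1, which encodes PU.1, was not a DEG (-0.42). Cebpd was no longer a DEG without replicate 33 (log2 fold change -0.97). Among 14 genes often used as housekeeping controls 12 were not DEGs, 14.3% called against 24.9% of all genes. B2m rose (1.58) and Hprt fell (-1.47), and 4 of the list fell with total library size. Gapdh had only 9.40 and 9.87 CPM in counts of uniquely aligned fragments and is uncertain, since the genome holds many near-copies of it.

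The labelled cell type was checked against markers. Macrophage genes were present in every library, with Lyz2, Adgre1, Csf1r and Cd68 at medians of 16352, 718, 328 and 225 CPM without stimulation and of 12931, 2784, 300.2 and 176 CPM after LPS. Among the 10 macrophage markers 3 rose and 1 fell, 40% called against 24.9% of all genes. Of 21 genes that mark alveolar macrophages 13 fell, 3 rose and 5 were not DEGs (median -1.59). Siglecf, the sialic acid receptor by which these cells are sorted, fell from 35 to 92.7 CPM (median 64.6) to 3.53 to 11 CPM (median 7.42), and Plet1 from 297 to 580.4 CPM (median 441) to 36 to 136 CPM (median 92.4), whereas Car4, a carbonic anhydrase of the same cells, rose (1.07, no longer a DEG with total library size, 0.72), and Marco (0.36, and -0.29 without LPS replicate 29) and Itgax (0.55) were not DEGs. Markers of other cells were counted too. Summed over 13 neutrophil genes the level was 2166 to 12939 CPM without stimulation and 863 to 8571 CPM after LPS, mostly S100a8 and S100a9. Among the 12 tested 5 fell, 1 rose and 6 were not DEGs (50% called against 24.9% of all genes). Mpo had 25 and 19 counts in all. S100a8 was highest in replicate 33 (7363 CPM, median of the group 1355) and in LPS replicate 37 (4263 CPM, median 667), and its log2 fold change of -0.84 was 0.04 without the former and -1.75 without the latter, then a DEG. Over 15 dendritic cell genes the sum was 176 to 534 CPM and 2186 to 7978 CPM, of which Ccr7, Ccl22 and Fscn1, genes also raised in activated macrophages, made most, while 6 of the 14 tested rose and 4 fell. Cd209a, Cd207 (-3.60, and -4.62 without LPS replicate 37), Epcam (-2.62) and Itgae (-2.76) were those that fell, and Flt3 went from 1.55 to 18.6 CPM and Xcr1 was too low to be tested. Of 10 mast cell and basophil genes tested 4 rose and none fell, 40% called against 24.9% of all genes. Among them the histidine decarboxylase Hdc rose from 1.36 to 7.44 CPM (median 3.80) to 312 to 476 CPM (median 444). The mast cell protease Cpa3 was not a DEG (5.85 and 9.51 CPM). Of 12 T and NK cell genes 9 and of 8 B cell genes 7 were too low to be tested, with Cd3e at 0 and 2 counts in all, and Ighm fell from 28.8 to 1.33 CPM. All 3 T and NK cell genes tested were DEGs (2 rose, 1 fell), against 24.9% of all genes. The mean sum of that list was 35.3 CPM without stimulation and 73.3 CPM after LPS. Of 4 plasmacytoid dendritic cell genes tested 2 rose, 50% called against 24.9% of all genes. Siglech was too low to be tested, with 204 and 0 counts in all. Of 4 eosinophil genes tested 1 fell, and of 4 erythroid and megakaryocyte genes tested 1 rose, a share of 25% in both against 24.9% of all genes, with Hba-a1 at 34 and 20 counts and not tested. Of 10 stromal, epithelial and endothelial genes tested 2 rose and 2 fell (40% called against 24.9% of all genes). The part of these cells in the results was not tested.

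The WT response was set beside that of AhR-KO BMDMs, in which 5105 genes (30.8%) were DEGs of LPS. Ahr itself was counted in the libraries labelled AhR-KO at means of 7.41 CPM without stimulation and 43.1 CPM after LPS, against 28.3 and 16.8 CPM in WT, and since the counts cover the whole gene and the deleted part is not given in the labels, they do not check the genotype. The overlap held 3420 genes, 82.7% of the WT DEGs and 67% of the AhR-KO DEGs, of which 3396 changed in the same direction. The difference between both responses, tested as the interaction of genotype and LPS, had an adjusted p of at most 0.05 for 713 genes (4.30%) and for 433 of the WT DEGs (10.5%). For 330 of these 433 the WT change was smaller than a change of the same sign in AhR-KO BMDMs. For the other 103 it was larger, or of opposite sign to that in AhR-KO BMDMs. The number of genes depended on the fit, from 373 without libraries 33 to 40 to 2729 with the length slope as a covariate. Of the 24 tested genes of cholesterol synthesis 17 were among the 713, and Cyp51, a demethylase of lanosterol, had the smallest p of those with a more positive WT response, with log2 fold changes of -1.49 in WT and -3.88 in AhR-KO BMDMs (interaction adjusted p = 2.4e-07). The fatty acid receptor Ffar2 (-3.34 in WT, -6.83 in AhR-KO) and the mitochondrial transporter Abcb10 (-1.53 and -3.03) likewise fell less in WT. Gga2, an adaptor of Golgi transport (1.36 in WT, -0.52 in AhR-KO), and Hmgn3, a nucleosome binding protein (3.72 and 0.06), rose in WT, where Hmgn3 went from 1.55 to 20.4 CPM against 0.704 and 0.733 CPM in AhR-KO BMDMs.

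In the other direction, Fam43a fell in WT (-1.85) and rose in AhR-KO BMDMs (1.83), with means after LPS of 17.7 and 20.2 CPM and means before of 63.9 and 5.67 CPM. Gem, a small GTPase (2.66 in WT, 7.04 in AhR-KO), the transcription factor Maff (1.75 and 3.03), Hdc (6.74 and 10.52) and the adaptor Scimp (1.28 and 2.83) rose less in WT. Of the lipid mediator genes described above, Ptgs2 rose less in WT (9.38) than in AhR-KO BMDMs (12.28; interaction adjusted p = 0.0051), and the interaction was also called for Lta4h (0.036), Ltc4s (0.0014), Pla2g7 (0.0021), Pla2g15 (0.028) and Ephx1 (0.00082). Among inflammatory genes, Tnf (3.75 in WT and 5.01 in AhR-KO; 0.023) and Il6 (8.44 and 11.16; 0.002) were called as well, whereas the differences for Il1b (0.35), Alox5 (0.055) and Ptgs1 (0.18) did not pass the threshold, which does not show that the responses were alike.

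**Figure D5:**
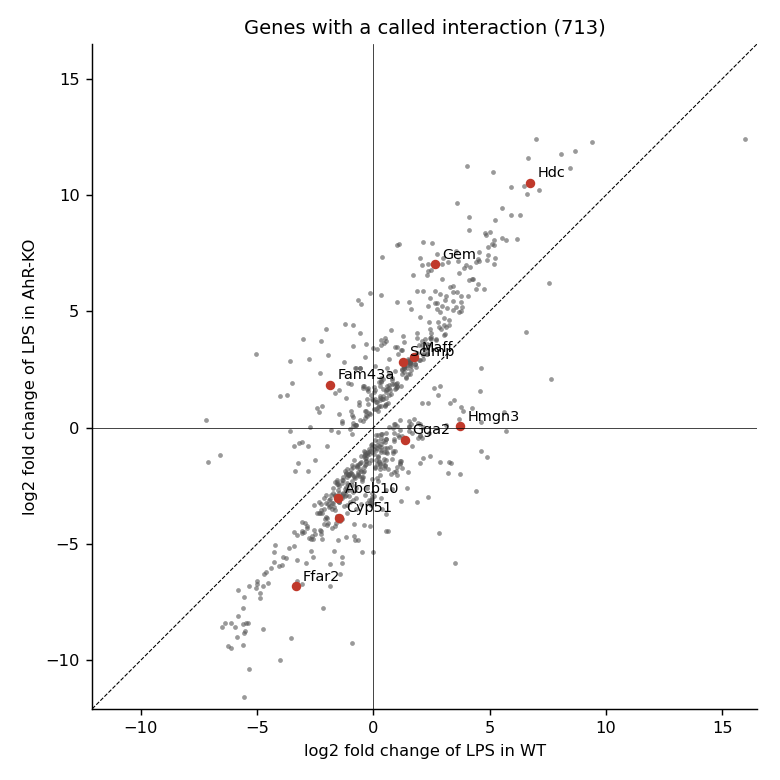
Each point is 1 of 713 genes for which the interaction of genotype and LPS was called, with the log2 fold change of LPS in WT on the x axis and in AhR-KO BMDMs on the y axis; the dashed line marks equal responses, and the 10 named genes have the smallest interaction p in either direction. Fam43a lies below 0 in WT and above 0 in AhR-KO, and Gga2 the other way round.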

How the data were processed

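RNA of 24 BMDM libraries was measured, and the 6 unstimulated and 6 LPS-stimulated WT libraries were compared. Per the study's methods, poly(A) RNA was made into strand-specific libraries, reads were demultiplexed with bcl2fastq 2.20.0 and aligned to mm10 with GSNAP, and the authors deposited raw counts of uniquely aligned fragments per Ensembl gene (featureCounts 2.0.1), fragments over several genes left out. Such counting lowers overlapping genes and near-identical copies. Neither batches nor shared animals are given in the labels, so p-values measure the spread between these libraries.

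Here the counts of all 24 libraries were fitted with edgeR 4.0.16 (R 4.3.3), with TMM factors, genes kept by filterByExpr (16593 of 55421), robust quasi-likelihood F-tests and Benjamini-Hochberg adjustment over all tested genes. Every adjusted p of a gene comes from these fits. On simulated counts for the WT comparison (16593 genes, of which 200 were given a log2 fold change of 2) edgeR called 64% of the 200 and 3 others. 6 library measures were compared by exact permutation over 924 arrangements, for which the smallest possible p is 0.0022. Alternatives were DESeq2 1.42.0, limma-voom (limma 3.58.1), other scalings, filters and covariates, and leaving out libraries. The results without both libraries of few Y-linked counts and without libraries 33 to 40 were added after seeing the data. Fragments were between 45106052 and 70063533 per WT library. For groups without a count, 3 counts over the group were used as the floor, and floors and intervals (95%, exact Poisson) cover counting error only. Replicates are named by library number.

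The lists (34, and 11 of markers) and named genes were chosen with earlier results of these data known. Named were the 12 largest increases and decreases, the 6 largest gains and losses in CPM, up to 4 DEGs with the smallest p per list and direction, 14 genes of the LPS receptor, of inflammatory and lipid mediators and of AhR, and the 5 smallest interaction p in either direction. Further genes were named after their values were seen, and results of a few genes are not reported here. Promoters are those of RefSeq (GRCm38.p6), matched by symbol.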

Additional observations from a re-analysis of the deposited data

Results flagged for a closer look

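Among the genes named here, 44 values in 536 groups of 6 libraries lay apart from the other 5 by Dixon's criterion on the log2 scale, which chance alone meets in about 1 in 20 groups. Of these, 29 were values of unstimulated replicate 33. This library was the highest of its group for Atp6v0d2 (1038 CPM), Bok (44 CPM), Ccna2 (259 CPM), Cebpd (37.9 CPM), Clec4d (321 CPM), Clec4e (189.6 CPM), Dhcr7 (127 CPM), Fpr1 (631 CPM), Gclm (236 CPM), Ido2 (0.204 CPM), Il18 (105 CPM), Ly96 (10.1 CPM), Nfkbia (527 CPM), Npc2 (1492 CPM), Ptger2 (37.3 CPM), Slc40a1 (24.3 CPM), Sod2 (331 CPM) and Tlr4 (276 CPM). It was the lowest for Alox5 (76.7 CPM), Csf1r (60.8 CPM), Dmpk (3.72 CPM), Irf1 (13.1 CPM), Itgae (3.99 CPM), Itgax (213 CPM), Man2b1 (76 CPM), Mcm10 (0.998 CPM), Nlrp1b (1.02 CPM), Pfkp (85.5 CPM) and Pkm (1026 CPM). Without stimulation, the other values set apart were Csf3 in replicate 26 (highest, 0.0133 CPM), Cyp4f13 in replicate 34 (highest, 7.54 CPM), Hamp in replicate 17 (highest, 0.0405 CPM), Il12a in replicate 26 (highest, 0.0399 CPM), Krt79 in replicate 34 (highest, 18.9 CPM), Pdcd1lg2 in replicate 25 (lowest, 6.33 CPM), Plat in replicate 25 (highest, 0.0854 CPM) and Socs3 in replicate 34 (highest, 49.9 CPM). For Csf3, Hamp, Il12a and Plat the other 5 libraries had no count, so that any count meets the criterion and its chance rate does not apply. After LPS, the other values set apart were Ankle1 in replicate 37 (highest, 0.120 CPM), Dmpk in replicate 29 (highest, 0.571 CPM), Itgb8 in replicate 29 (highest, 24 CPM), Ptger2 in replicate 37 (highest, 32.2 CPM), Qprt in replicate 22 (highest, 0.0515 CPM), Socs3 in replicate 29 (highest, 629 CPM) and Sod2 in replicate 37 (highest, 2323 CPM).

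The LPS response differed between WT and AhR-KO BMDMs, by the interaction test of edgeR, for 56 of the genes named here that were DEGs in WT. The difference in log2 fold change, WT minus AhR-KO, was positive for Hmgn3 (3.65), Slc1a2 (3.58), Ffar2 (3.49), Irf8 (2.97), Ltc4s (2.61), Cyp51 (2.39), Pla2g7 (2.29), Pclaf (2.08), Ccna2 (2.03), Gga2 (1.89), Rrm2 (1.73), Ephx1 (1.65), Fdft1 (1.52), Abcb10 (1.497), Hmgcs1 (1.47), Socs2 (1.46), Cxcl3 (1.35), Acat2 (1.17), Dhcr7 (1.03), Lta4h (0.84), Mcm7 (0.82), Nsdhl (0.69) and Pla2g15 (0.64). It was negative for Dmpk (-5.43), Il23a (-5.39), Il12b (-4.94), Gem (-4.38), Hdc (-3.79), Cd40 (-3.72), Fam43a (-3.69), Itgb7 (-3.43), Ccl2 (-3.01), Ptgs2 (-2.90), Il6 (-2.71), Irf7 (-2.64), Ier3 (-2.14), Cxcl10 (-2.04), Acod1 (-1.96), Vcam1 (-1.89), Isg15 (-1.88), Ch25h (-1.67), Xaf1 (-1.62), Gbp3 (-1.59), Scimp (-1.56), Atf3 (-1.45), Fcgr1 (-1.38), Maff (-1.28), Tnf (-1.26), Irgm1 (-1.10), Igtp (-1.07), Hk3 (-0.97), Tap2 (-0.93), Casp1 (-0.92), Tap1 (-0.84), Hif1a (-0.74) and Psme1 (-0.73). A negative difference is a smaller rise or a larger fall in WT, or, for Fam43a, a fall in WT and a rise in AhR-KO BMDMs.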

How the results depend on the processing

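Scaled to library totals instead of TMM, 3163 DEGs fell, and with no minimum fold change 6305 genes were called and 3032 fell. The interaction of genotype and LPS was called for 1125 genes by DESeq2, 1201 with the runs of library numbers in the fit, 2729 with the length slope as a covariate and 373 without libraries 33 to 40. All other fits gave between 3155 (mean of at least 1 CPM) and 4785 DEGs (total library size), and between 3929 and 4323 when any 1 WT library was left out. Scaling to total library size lowered the list medians, to 3.10 for cytokines, 2.79 for interferon-stimulated genes, 1.34 for MHC class I, 1.25 for nitric oxide and itaconate enzymes, 0.96 for Fc receptors, 0.36 for NRF2 genes, 0.27 for myeloid transcription factors, 0.20 for chemoattractant receptors, 0.043 for inflammasomes, -0.049 for arachidonate release, -0.13 for glycolysis, -0.22 for iron genes, -0.25 for scavenger receptors, -0.28 for prostanoid genes, -0.34 for lysosomal genes, -0.46 for housekeeping genes, -0.94 for MHC class II, -1.04 for leukotriene genes, -1.87 for cholesterol synthesis and -1.92 for alveolar macrophage markers. limma-voom gave 3.65 for cytokines and 0.013 for arachidonate release, and the 12 WT libraries alone gave 0.015 for the latter and -0.94 for leukotriene genes. With the length slope the medians were 0.075 for arachidonate release, -0.019 for prostanoid genes and -0.24 for scavenger receptors. Without libraries 33 to 40 they were 3.77 for chemokines, -0.95 for MHC class II, -0.93 for leukotriene genes and 0.045 for iron genes. Leaving out 1 library gave 3.22 to 3.79 for cytokines, 0.11 to 0.59 for arachidonate release, -0.15 to 0.13 for prostanoid genes and -0.26 to 0.25 for scavenger receptors. The cause was not tested.

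Of 5624 values of the 268 named genes under the alternatives, 5534 kept their direction and their side of the threshold, 81 were no longer called and 9 were newly called. None that was called changed direction, and 23 of the 229 named DEGs lost the call under at least 1 alternative. No paired analysis was run because the groups share no replicate numbers in the labels, and a pairing by library order was not tested. The fit with the runs of library numbers as a factor gave 4509 DEGs. Genes with few counts are limited by depth, as their counting intervals show.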
